A study of Mus musculus with 4 samples.

Results

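The solute carriers are membrane proteins that move small molecules across the plasma membrane and the membranes of organelles, and their genes are numbered by family. The genes described here are the 139 solute carrier genes that reached a mean of at least 2 FPKM, which counts fragments per length of transcript and per size of library, over 4 mouse lung cancer cell lines. They were selected on their gene symbol and on their measured mean level, leaving out Slc2a1 and Slc7a11, from 351 solute carrier symbols among the 34147 symbols of the deposited table. The levels that chose them are given below as a description, whereas the difference between the line groups did not enter the choice. The members just above the level limit were Slc41a3, Slc22a4 and Slc38a6, with means of 2.08, 2.13 and 2.16 FPKM, and those just below it were Slc25a43, Slc31a2 and Slc36a4, with 1.99, 1.96 and 1.93 FPKM.

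The metastatic group was the lines 238N1 and 482N1, from lymph nodes, and the non-metastatic group was the lines 368T1 and 394T4, from the lung. All 4 lines are on the 129S1/SvImJ background and carry floxed p53 alleles, and a lentivirus that carries Cre recombinase started the tumours. The labels describe cancer cells grown in culture but also call the samples tumours, and each line is 1 library, so the error within a group is the spread between 2 lines. Within each group, values are given in the order 238N1 then 482N1, and 368T1 then 394T4. Nothing in the labels ties lines of one group to lines of the other. SD values rest on n = 2 lines in each group, and standard errors (SE) are those of the model fitted across all genes.

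As background, carriers at the plasma membrane import nutrients or exchange them against ions and other metabolites, often using the sodium gradient that the sodium pump sets up or a gradient of protons. Carriers of the mitochondrial inner membrane link the cytosol to respiration, and carriers of the Golgi and endoplasmic reticulum supply sugar nucleotides for glycosylation. The paired Slc30 and Slc39 families mostly move zinc out of and into the cytosol. Tumour cells in culture rely on carriers for amino acids, lactate, folate and nucleosides, which is why the families are commonly described by what they carry.

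The 4 libraries differed in ways that touch all members. Their FPKM values summed to between 924354 and 2279790, of which the largest single row held between 18.7% and 62.4%, and the members held 3389 and 3490 FPKM in the metastatic lines, against 3926 and 3696 FPKM in the non-metastatic lines. By the worth of 1 fragment in the smallest values, 238N1 was the deepest library, and the relative depth of the others was 0.580 for 482N1, 0.608 for 368T1 and 0.550 for 394T4. All 5 epithelial markers examined reached 1 FPKM in some line, and they summed to 2566 and 1761 FPKM in the metastatic lines, against 3485 and 3188 FPKM in the non-metastatic lines. Of 10 stromal markers 6 reached 1 FPKM in some line, and they summed to 0.678 and 42.5 FPKM in the metastatic lines, against 2.47 and 4.30 FPKM in the non-metastatic lines. In 482N1, Col1a1 stood at 16.3 FPKM and Acta2 at 16.3 FPKM, and Col1a2, Dcn and Lum were listed at 0 in all 4 lines. The part of these differences in the results below was not tested. The 12 leukocyte markers summed to between 2.07 and 2.95 FPKM with Ptprc listed at 0 in every line, and none of the 7 endothelial markers reached 1 FPKM. In such bulk samples, fewer cells of a type and less RNA per cell cannot be told apart.

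The members were spread over 39 gene families and 20 chromosomes, and their levels differed far more between genes than between lines. Their means ran from 2.08 to 378 FPKM, with 6 members at 100 FPKM or more, 80 at 10 FPKM or more and 22 under 5 FPKM. Over the 4 lines, the highest value of a member was a median of 1.79 times its lowest, 37 members stayed within 1.5-fold and 94 within 2-fold, and 6 of the 135 members above 0 in every line varied over 4-fold. Of the solute carrier symbols in the table, 113 were listed at 0 in all 4 lines and 189 had a mean under 1 FPKM. The classes were represented unequally, with 31 of 44 mitochondrial carriers and 19 of 26 carriers of nucleotide sugars and other organelle donors among the members, but 18 of 62 amino acid and peptide carriers and 8 of 53 carriers of organic ions and fatty acids.

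**Figure D1:**
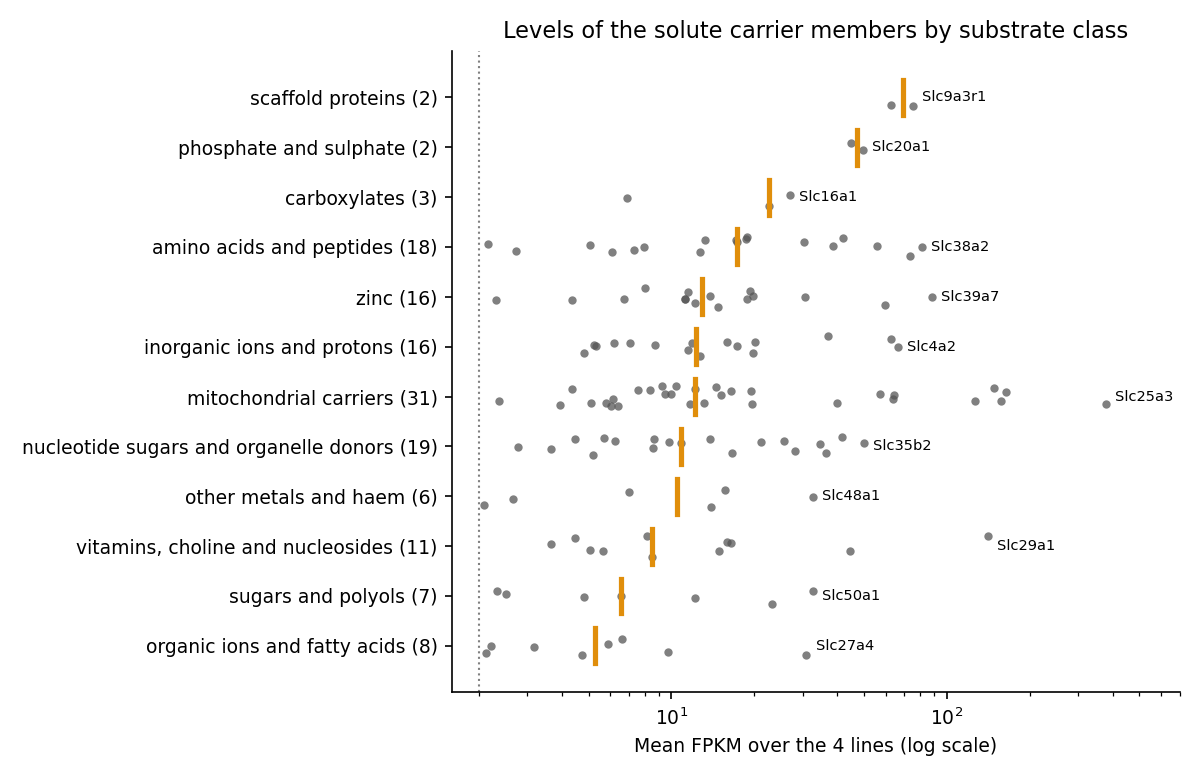
Mean FPKM over the 4 lines (log axis) of each of the 139 members, 1 point a gene, by substrate class with the number of members in brackets. Orange bars are class medians, the dotted line is the limit of 2 FPKM that chose the members, and the highest member of each class is named. The 5 highest mitochondrial carriers and Slc29a1 stand above 100 FPKM.

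Mitochondrial carriers held the largest share of the members' summed FPKM, at 38.7% and 35.2% in the metastatic lines, against 41.0% and 41.0% in the non-metastatic lines. The highest member was Slc25a3, which brings phosphate into the mitochondrial matrix, with 375 and 274 FPKM in the metastatic lines, against 448 and 415 FPKM in the non-metastatic lines. Also high was Slc25a5, an exchanger of ADP for ATP, with 139.6 and 111 FPKM in the metastatic lines, against 200.1 and 206 FPKM in the non-metastatic lines. Its close relative Slc25a4 had 135 and 146 FPKM in the metastatic lines, against 160.1 and 151 FPKM in the non-metastatic lines. How any reads shared by these related genes were assigned is not known here, so the split between Slc25a4 and Slc25a5 is uncertain. Slc25a39, a mitochondrial carrier linked to glutathione import, stood at 109 and 147 FPKM in the metastatic lines, against 205 and 166 FPKM in the non-metastatic lines, and the citrate carrier Slc25a1 at 154 and 90.1 FPKM in the metastatic lines, against 136 and 127 FPKM in the non-metastatic lines. The only member at or above 100 FPKM outside this class was Slc29a1, an equilibrative nucleoside transporter, with 127 and 118 FPKM in the metastatic lines, against 162 and 154 FPKM in the non-metastatic lines.

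The question behind the comparison of the line groups was which solute carriers distinguish metastatic from non-metastatic lines. On the log2(FPKM + 1) scale, with limma and Benjamini-Hochberg adjustment over the 12425 genes tested, none of the 139 members passed an adjusted p of 0.05 in either direction, where 0.113% of all genes tested passed as higher and 0.0483% as lower in the metastatic lines. Fits without the variance trend and with robust variance also gave 0 members. The smallest adjusted p of a member was 0.154, for Slc4a11. At an unadjusted p under 0.05, 6 members were higher in the metastatic lines (4.32% of members, beside 5.7% of all genes) and 14 were lower (10.1%, beside 8.68%). Both metastatic lines stood above both non-metastatic lines for 43 members (30.9%, beside 28.3%) and below them for 39 members (28.1%, beside 26.9%), and the groups overlapped for 57. The members' shares were near those of all genes in each of these counts.

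The median difference of the members was 0.09 (log2), beside 0.05 for all genes tested. Of the members 81 were positive and 58 negative, beside 6638 and 5787 of the 12425 genes tested. This balance depended on how libraries were scaled, since dividing by the library sum moved the median of all genes to 0.61 and left 122 members positive and 17 negative. Dividing by the sum without the largest row moved it to 0.26, with 96 positive and 43 negative, and dividing by the sum of protein-coding genes moved it to 0.24, with 95 positive and 44 negative. Quantile normalization gave 71 positive and 68 negative members and median centring 68 positive and 71 negative. Over the 6 scalings, the deposited values included, 63 members were higher in the metastatic lines under every one, 17 were lower under every one and 59 had a mixed sign. The 17 included Slc4a4, Slc4a11, Slc5a6, Slc9a3r1, Slc9a3r2, Slc19a1, Slc22a18, Slc25a5, Slc25a10, Slc25a25, Slc25a33, Slc25a48, Slc29a2, Slc35c2, Slc39a4 and Slc39a11. Scaling to the library sum moved the differences given below by over 1.5 times for Slc6a8 to 1.505, Slc7a6 to 1.27, Slc30a9 to 1.18, Slc25a48 to -0.94, Slc39a11 to -0.10, Slc11a2 to 0.02, Slc15a4 to 0.08 and Slc35b1 to 0.14. Directions below are those of the deposited values, and any other member given as lower was not lower under at least 1 scaling.

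**Figure D2:**
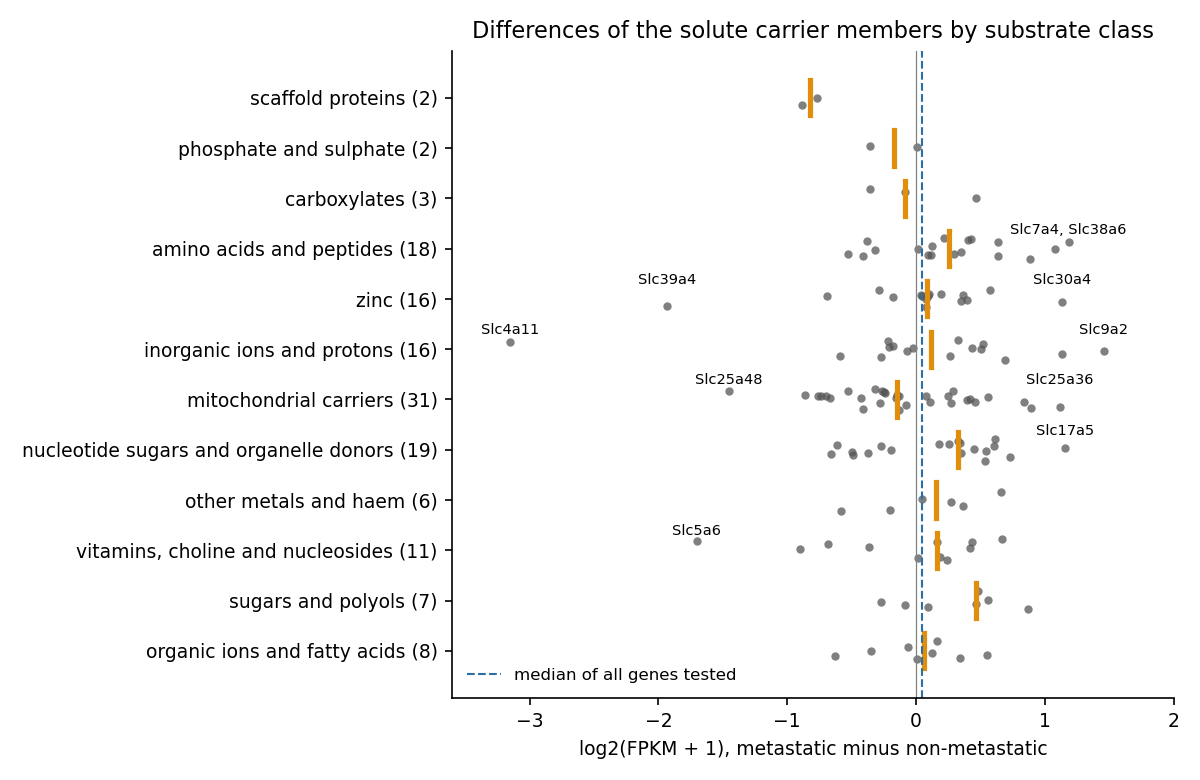
Difference between metastatic and non-metastatic lines on the log2(FPKM + 1) scale for each member, by substrate class with the number of members in brackets, classes in the order of their median level. Orange bars are class medians, the dashed line is the median of all 12425 genes tested at 0.05, and some of the members furthest from 0 are named. Slc4a11 stands apart at -3.15, and the scaffold proteins, the phosphate and sulphate, the mitochondrial and the carboxylate carriers have medians below that of all genes.

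Slc4a11, a member of the bicarbonate transporter family that conducts protons and is known from the corneal endothelium, showed the largest difference of any member. It had 3.11 and 2.04 FPKM in the metastatic lines, against 41.5 and 22.3 FPKM in the non-metastatic lines. Both metastatic lines were far below both non-metastatic lines, with means of 2.58 ± 0.752 FPKM in the metastatic lines and 31.9 ± 13.5 FPKM in the non-metastatic lines (SD, n = 2 each). The log2 difference was -3.15 (SE 0.38, adjusted p = 0.154 by limma). The gene (ENSMUSG00000074796) lies on the reverse strand of chromosome 2, from 130509849 to 130523255 in mm9, and none of its exons overlaps an exon of another annotated gene. Under the alternatives tried its difference ran from -3.59 to -2.24 and its adjusted p from 0.0195 to 0.523, and it passed only after scaling to the library sum, at -2.61.

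The other 15 inorganic ion and proton carriers had no common direction, with 8 of the 16 positive and 8 negative in the class as a whole and a median difference of 0.12. Among the cation-chloride cotransporters of the Slc12 family, 3 of 5 stood above in both metastatic lines, beside 28.3% of all genes tested. The sodium-potassium-chloride cotransporter Slc12a2 had 77.1 and 69.02 FPKM in the metastatic lines, against 41.8 and 62.2 FPKM in the non-metastatic lines, while the potassium-chloride cotransporter Slc12a4 was slightly lower, with 33.9 and 35.6 FPKM in the metastatic lines, against 40.9 and 38.2 FPKM in the non-metastatic lines. The bicarbonate transporters of the Slc4 family besides Slc4a11 overlapped between the groups, as for the anion exchanger Slc4a2 with 51.9 and 68.5 FPKM in the metastatic lines, against 79.4 and 66.01 FPKM in the non-metastatic lines. Slc26a2, a sulphate transporter needed for cartilage proteoglycans, was counted in this class by its family. It had 30.5 and 19.2 FPKM in the metastatic lines, against 15.4 and 13.99 FPKM in the non-metastatic lines.

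Slc9a2, a sodium-proton exchanger of epithelia, had 8.26 and 31.6 FPKM in the metastatic lines, against 4.67 and 6.09 FPKM in the non-metastatic lines. Only 482N1 was far from the rest, and the difference of 1.46 (SE 0.66, adjusted p = 0.372) was 0.55 without that line.

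Both proteins that bear an Slc symbol but are scaffolds rather than transporters were lower on average in the metastatic lines. Slc9a3r1, also known as NHERF1, links membrane proteins to the cortical cytoskeleton at the apical surface of epithelia. It had 57.03 and 48.5 FPKM in the metastatic lines, against 103 and 92.9 FPKM in the non-metastatic lines, with both metastatic lines below both non-metastatic lines and a difference of -0.88 (SE 0.17, adjusted p = 0.328), which shrank to -0.25 after scaling to the library sum. Its relative Slc9a3r2 had 65.7 and 30.2 FPKM in the metastatic lines, against 91.6 and 64.2 FPKM in the non-metastatic lines, so that 238N1 lay just above 394T4 and the groups overlapped. Of the 5 epithelial markers counted, 4 stood below in both metastatic lines, where 26.9% of all genes tested did so. The share was 48.9% for all genes at 50 FPKM or more, the level of Krt8, Krt18, Krt19 and Cdh1. For all genes between 10 and 50 FPKM, the level of Epcam, it was 30.2%. Epcam, the furthest apart, had 4.13 and 4.76 FPKM in the metastatic lines, against 54.0 and 34.3 FPKM in the non-metastatic lines, whereas Cdh1 overlapped between the groups, with 173.8 and 104.4 FPKM in the metastatic lines, against 108.7 and 155.1 FPKM in the non-metastatic lines. The part of these markers in the values of the scaffold genes was not tested. The median of the pair was below that of all genes under each of the 6 scalings examined. Most of these shift all genes nearly alike and so could hardly change this.

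**Figure D3:**
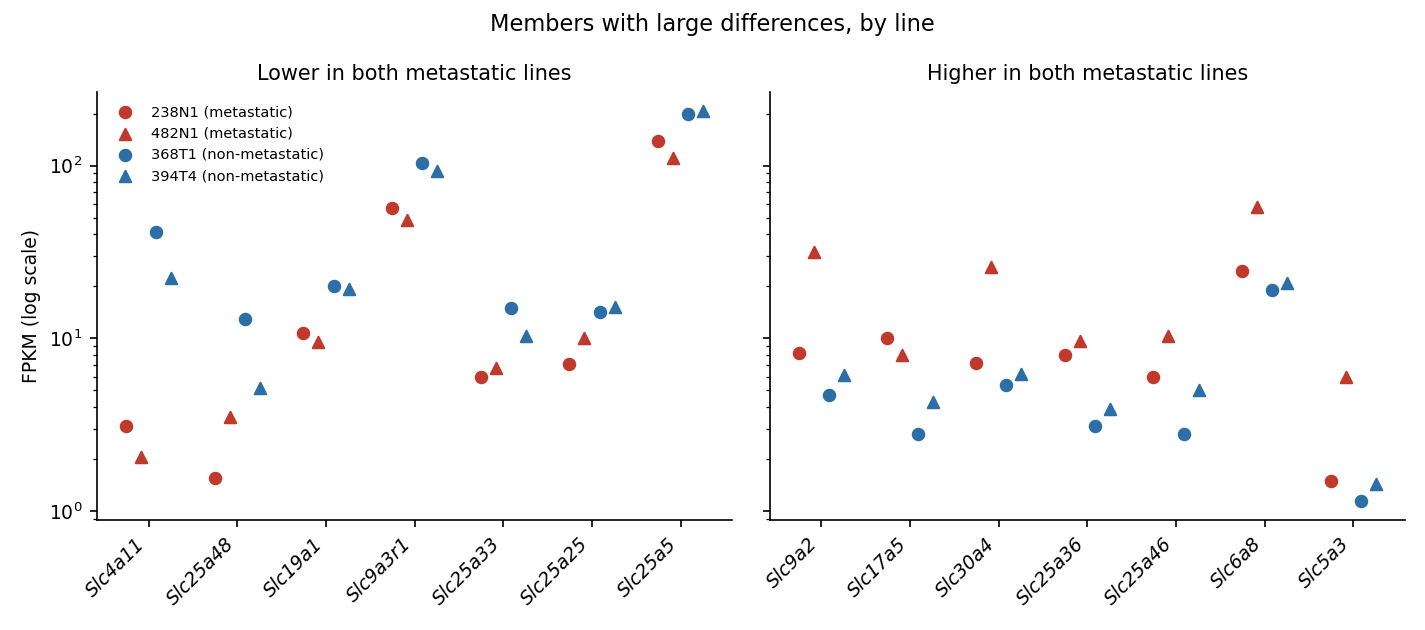
FPKM (log axis) in each line for 7 members with large negative differences (left) and 7 with large positive differences (right), among members whose groups did not overlap and that were above 0 in every line. Red points are the metastatic lines and blue points the non-metastatic lines. Slc4a11 has the widest gap, and in Slc9a2, Slc30a4, Slc6a8 and Slc5a3 the line 482N1 stands alone above the other 3.

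Among the 31 mitochondrial carriers, 12 had a positive and 19 a negative difference, with a median of -0.15. Both metastatic lines stood below for 11 and above for 6, where 26.9% and 28.3% of all genes tested did so. At an unadjusted p under 0.05 the class held 5 lower members and 1 higher, where 8.68% of all genes tested were lower and 5.7% higher. Relative to the median of all genes, the class median was from -0.19 to -0.14 under the 6 scalings. Median centring and division by a sum shift all genes of a line nearly alike, so this relative value could hardly move. The class median itself was 0.47, 0.09 and 0.07 after scaling to the library sum, the sum without the largest row and the protein-coding sum. The 8 carriers with a mean of 50 FPKM or more had a median of -0.29, beside -0.24 for all genes at that level. Both metastatic lines stood below for 5 of the 8 and above for 0, where 48.9% and 10.3% of all genes at that level did so. Of the 8, 7 were negative. The exception was Slc25a24, a calcium-regulated exchanger of adenine nucleotides for phosphate, with 47.5 and 79.99 FPKM in the metastatic lines, against 47.4 and 54.7 FPKM in the non-metastatic lines.

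The 5 mitochondrial carriers lower at an unadjusted p under 0.05 included Slc25a5, Slc25a10, Slc25a25 and Slc25a33. Slc25a5 differed by -0.70 (SE 0.17, adjusted p = 0.335), which shrank to -0.06 after scaling to the library sum. The dicarboxylate carrier Slc25a10 had 45.96 and 53.02 FPKM in the metastatic lines, against 87.2 and 71.5 FPKM in the non-metastatic lines. Slc25a33, a pyrimidine nucleotide carrier, had 6.01 and 6.75 FPKM in the metastatic lines, against 14.9 and 10.3 FPKM in the non-metastatic lines, and Slc25a25, another calcium-regulated ATP and phosphate exchanger, had 7.10 and 10.04 FPKM in the metastatic lines, against 14.3 and 15.2 FPKM in the non-metastatic lines. The groups were separate for these 4, and adjusted p was at least 0.335 for each. Slc25a10, Slc25a25 and Slc25a33 have exons that overlap an exon on the opposite strand, and no source used here says whether counting used strand. The same limit holds for Slc4a2, Slc5a6, Slc7a4, Slc7a7, Slc11a2, Slc12a4, Slc20a1, Slc20a2, Slc25a46, Slc29a1, Slc30a4, Slc33a1, Slc35a1, Slc39a9, Slc44a1 and Slc48a1, among 31 members that overlap another gene's exon on the opposite strand alone and 36 with any overlap. Slc5a3, Slc35a3 and Slc39a7 overlap an exon on their own strand.

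The largest negative difference in the class belonged to Slc25a48, a carrier linked to choline in mitochondria, with 1.56 and 3.48 FPKM in the metastatic lines, against 12.97 and 5.12 FPKM in the non-metastatic lines. Its difference was -1.45 (SE 0.54, adjusted p = 0.345), and it was -0.85 without 368T1. At the other end, Slc25a36, a relative of Slc25a33 that also carries pyrimidine nucleotides, had 7.95 and 9.63 FPKM in the metastatic lines, against 3.12 and 3.90 FPKM in the non-metastatic lines, a difference of 1.12 (SE 0.24, adjusted p = 0.328). The 2 pyrimidine nucleotide carriers thus stood on opposite sides, each with separate groups. Slc25a46, an outer membrane protein of mitochondrial fission and fusion, had 5.98 and 10.3 FPKM in the metastatic lines, against 2.81 and 4.99 FPKM in the non-metastatic lines, and Slc25a45 had 5.80 and 7.83 FPKM in the metastatic lines, against 2.56 and 4.28 FPKM in the non-metastatic lines. The carnitine-acylcarnitine carrier Slc25a20, which feeds fatty acid oxidation, had 15.4 and 17.96 FPKM in the metastatic lines, against 10.01 and 14.7 FPKM in the non-metastatic lines. Aspartate-glutamate carriers overlapped between the groups, as for Slc25a13 with 24.2 and 12.3 FPKM in the metastatic lines, against 19.6 and 21.8 FPKM in the non-metastatic lines. The mitoferrins Slc25a37 and Slc25a28, which import iron, also overlapped.

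Carriers of nucleotide sugars and other organelle donors had a median difference of 0.33. As deposited, 17 of the 19 had groups that did not overlap, 10 above and 7 below. Of all genes tested, 28.3% stood above and 26.9% below. Under quantile normalization 6 of the carriers stood above and 6 below, beside 33 and 39 of all 139 members. After scaling to the library sum 11 stood above and 0 below, beside 70 and 3 of all members, and the median of all genes was 0.61. Shares of all genes under these scalings are not given, so these counts describe no trait particular to the class. In the deposited values the split followed the level of the gene. All 9 members with a mean between 2 and 10 FPKM were positive, whereas 6 of the 9 between 10 and 50 FPKM and the single member over 50 FPKM were negative. Of the lower 9, Slc35a5 averaged 2 FPKM or more in the metastatic group alone. Slc17a5, the lysosomal exporter of sialic acid, had 10.02 and 7.97 FPKM in the metastatic lines, against 2.78 and 4.25 FPKM in the non-metastatic lines, a difference of 1.16 (SE 0.28, adjusted p = 0.334). Slc35a3, which supplies UDP-N-acetylglucosamine to the Golgi, had 6.37 and 7.84 FPKM in the metastatic lines, against 4.18 and 4.37 FPKM in the non-metastatic lines. Slc33a1, the acetyl-CoA transporter of the endoplasmic reticulum, had 8.50 and 12.4 FPKM in the metastatic lines, against 5.66 and 8.01 FPKM in the non-metastatic lines. The CMP-sialic acid transporter Slc35a1 overlapped between the groups, with 7.86 and 11.4 FPKM in the metastatic lines, against 6.13 and 8.79 FPKM in the non-metastatic lines, and the UDP-galactose transporter Slc35a2 had 13.9 and 17.2 FPKM in the metastatic lines, against 11.04 and 13.02 FPKM in the non-metastatic lines.

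On the lower side of the Slc35 family stood its most highly measured genes. Slc35b2, which brings the sulphate donor PAPS into the Golgi, had 43.99 and 46.2 FPKM in the metastatic lines, against 62.1 and 47.8 FPKM in the non-metastatic lines. Slc35b1, an exchanger of ATP for ADP at the endoplasmic reticulum, had 30.5 and 29.9 FPKM in the metastatic lines, against 44.9 and 40.7 FPKM in the non-metastatic lines, a difference of -0.49 (SE 0.15, adjusted p = 0.335). Slc35c2, linked to GDP-fucose supply and Notch fucosylation, had 18.7 and 24.5 FPKM in the metastatic lines, against 37.6 and 31.6 FPKM in the non-metastatic lines, and Slc35e4 had 23.7 and 30.7 FPKM in the metastatic lines, against 44.3 and 39.3 FPKM in the non-metastatic lines. Slc35c1, the Golgi GDP-fucose transporter, was closer between the groups, with 15.5 and 15.2 FPKM in the metastatic lines, against 18.9 and 16.6 FPKM in the non-metastatic lines.

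The same relation to level held over all members and over all genes, with level bins that were chosen after the data were seen. Of the 59 members between 2 and 10 FPKM, 25 stood above and 8 below in both metastatic lines (42.4% and 13.6%, beside 38.7% and 15.6% of all genes at that level), with a median difference of 0.28 beside 0.22. The 25 include Slc38a6, Slc35a5, Slc40a1, Slc41a3 and Slc5a3, which averaged 2 FPKM or more in the metastatic group alone. The 8 include Slc5a6, which did so in the non-metastatic group alone. For these genes the level limit and the direction are not independent. Of the 61 members between 10 and 50 FPKM, 15 stood above and 21 below (24.6% and 34.4%, beside 25.4% and 30.2%). Of the 19 members at 50 FPKM or more, 3 stood above and 10 below (15.8% and 52.6%, beside 10.3% and 48.9%), with a median of -0.28 beside -0.24. The members' medians moved with level in the same direction as those of all genes.

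**Figure D4:**
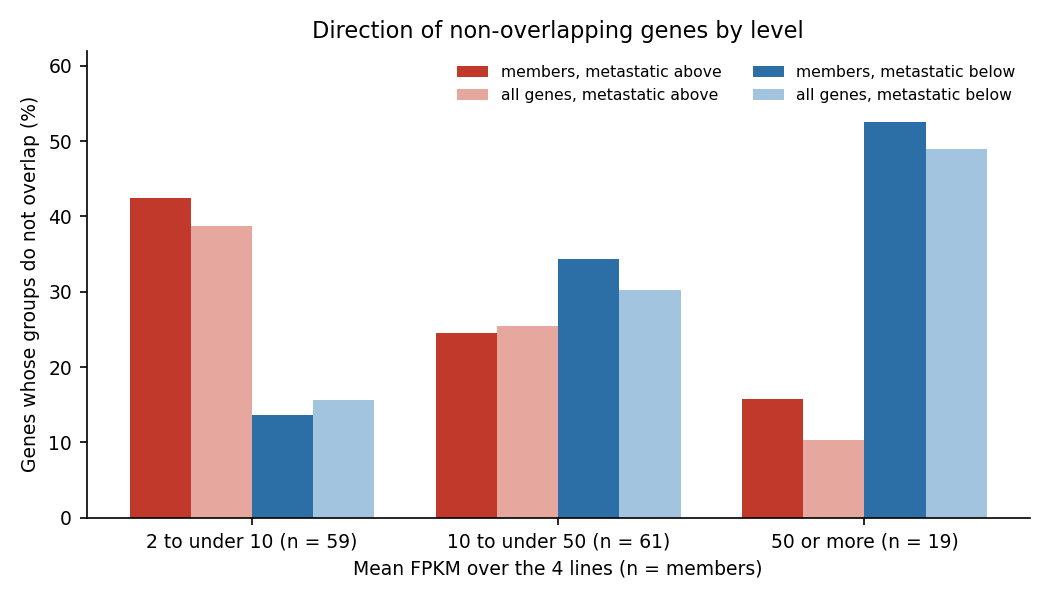
Share of genes, in percent, whose metastatic lines both stood above (red) or both below (blue) the non-metastatic lines, by mean FPKM over the 4 lines, for the members (dark bars) and for all genes of the same level (light bars). Among the members, 42.4% stand above at 2 to under 10 FPKM and 52.6% stand below at 50 FPKM or more, and all genes of those levels have the same order.

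Amino acid and peptide carriers had a median difference of 0.25, with 14 of 18 positive (12 of 18 under quantile normalization and median centring). As deposited, 6638 of the 12425 genes tested were positive. Relative to all genes the class median was from 0.20 to 0.25 under the 6 scalings, most of which leave this value nearly unchanged by construction. Both metastatic lines stood above for 7 members and below for 4, beside 28.3% and 26.9% of all genes tested. The class held 12.7% and 15.02% of the members' summed FPKM in the metastatic lines, against 11.1% and 11.2% in the non-metastatic lines. The highest was Slc38a2, a sodium-coupled importer of small neutral amino acids that responds to amino acid shortage, with 80.5 and 102 FPKM in the metastatic lines, against 73.6 and 68.03 FPKM in the non-metastatic lines. Slc3a2, the heavy chain that several Slc7 transporters need to reach the cell surface, had 59.5 and 70.3 FPKM in the metastatic lines, against 92.2 and 70.9 FPKM in the non-metastatic lines, with 482N1 only just under 394T4. Of its light chains, Slc7a6, an exchanger of cationic for neutral amino acids, had 47.6 and 46.5 FPKM in the metastatic lines, against 30.8 and 28.9 FPKM in the non-metastatic lines, a difference of 0.64 (SE 0.15, adjusted p = 0.332). The related light chain Slc7a7 had 9.43 and 2.97 FPKM in the metastatic lines, against 3.47 and 4.32 FPKM in the non-metastatic lines, with 238N1 alone above the other 3 lines.

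The taurine transporter Slc6a6 had 58.00 and 70.3 FPKM in the metastatic lines, against 41.5 and 53.97 FPKM in the non-metastatic lines. Slc6a8, the creatine transporter, had 24.6 and 57.2 FPKM in the metastatic lines, against 18.9 and 20.9 FPKM in the non-metastatic lines, a difference of 0.89 that was 0.30 without 482N1. Among carriers that accept glutamine, Slc1a5, a neutral amino acid exchanger, had 15.2 and 11.7 FPKM in the metastatic lines, against 8.51 and 17.5 FPKM in the non-metastatic lines, and Slc38a1 had 12.7 and 27.7 FPKM in the metastatic lines, against 22.6 and 11.4 FPKM in the non-metastatic lines, both with overlapping groups. The lysosomal glutamine and asparagine exporter Slc38a7 had 20.2 and 18.2 FPKM in the metastatic lines, against 15.4 and 15.6 FPKM in the non-metastatic lines, and here, as for Slc38a2, both metastatic lines stood above both non-metastatic lines. The arginine importer Slc7a1 was lower, with 17.03 and 15.5 FPKM in the metastatic lines, against 22.7 and 20.2 FPKM in the non-metastatic lines. Slc15a4, a lysosomal carrier of histidine and small peptides, was the member of the class lower at an unadjusted p under 0.05, with 13.4 and 14.2 FPKM in the metastatic lines, against 22.1 and 18.7 FPKM in the non-metastatic lines (-0.53, SE 0.18, adjusted p = 0.340).

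Carboxylate carriers were few among the members, at 3 of 17 symbols. Slc16a1, the monocarboxylate transporter that moves lactate and pyruvate with a proton, was nearly level, with 26.5 and 25.5 FPKM in the metastatic lines, against 27.5 and 27.98 FPKM in the non-metastatic lines. Slc16a3, the transporter of glycolytic cells that exports lactate, had 17.7 and 21.9 FPKM in the metastatic lines, against 25.3 and 25.8 FPKM in the non-metastatic lines, and shares exon sequence with Csnk1d on the opposite strand. Outside the carrier set, the more abundant chaperone gene and the more abundant lactate dehydrogenase gene had both metastatic lines below both non-metastatic lines. Of all genes at 50 FPKM or more, 48.9% did so. Bsg is the chaperone that brings Slc16a1 and Slc16a3 to the cell surface. It had 351 and 304 FPKM in the metastatic lines, against 439 and 496 FPKM in the non-metastatic lines. The lactate dehydrogenase subunit gene Ldha had 589 and 429 FPKM in the metastatic lines, against 788 and 656 FPKM in the non-metastatic lines. Neither passed the adjusted test (adjusted p = 0.335 and 0.361). The other chaperone, Emb, had 0.553 and 4.91 FPKM in the metastatic lines, against 4.98 and 1.44 FPKM in the non-metastatic lines, and the other subunit gene, Ldhb, had 0.540 and 1.87 FPKM in the metastatic lines, against 0.660 and 2.23 FPKM in the non-metastatic lines, both with overlapping groups. Brp44l, a subunit of the mitochondrial pyruvate carrier, was listed at 0 in 482N1 with 8.15 FPKM in 238N1, against 4.43 and 6.42 FPKM in the non-metastatic lines. The other subunit gene, Brp44, was more abundant and overlapped between the groups. It had 19.97 and 19.03 FPKM in the metastatic lines, against 18.27 and 21.59 FPKM in the non-metastatic lines.

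Of the sugar and polyol carriers, 5 of 7 had a positive difference (4 of 7 under quantile normalization and median centring) and the median was 0.46. As deposited, 6638 of the 12425 genes tested were positive. Slc37a3 had 34.6 and 19.9 FPKM in the metastatic lines, against 16.3 and 21.6 FPKM in the non-metastatic lines, where 238N1 was highest and the groups overlapped. Slc37a4, the glucose-6-phosphate transporter of the endoplasmic reticulum, had 6.32 and 5.26 FPKM in the metastatic lines, against 4.18 and 3.57 FPKM in the non-metastatic lines, and Slc2a8, an intracellular hexose transporter, had 6.25 and 9.97 FPKM in the metastatic lines, against 4.87 and 5.21 FPKM in the non-metastatic lines. Slc50a1, a member of the SWEET family of sugar transporters, was the highest of the class, with 32.6 and 30.4 FPKM in the metastatic lines, against 38.1 and 29.4 FPKM in the non-metastatic lines. Slc5a3, which imports myo-inositol with sodium under osmotic stress, had 1.497 and 5.97 FPKM in the metastatic lines, against 1.15 and 1.43 FPKM in the non-metastatic lines, and its difference of 0.87 was 0.13 without 482N1. Its exons overlap those of Mrps6 on the same strand, so reads of the 2 genes may be mixed.

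Zinc transporters of the Slc30 family, most of which lower cytosolic zinc, all had positive differences as deposited. These were 6 of 6 with a median of 0.35, where 6638 of the 12425 genes tested were positive. At least 4 of 6 were positive under every scaling, but division by the library sum also raised the median of all genes, to 0.61. Of the 6 genes, 3 had groups that did not overlap, all above, beside 28.3% of all genes tested. Slc30a9 had 22.9 and 24.8 FPKM in the metastatic lines, against 14.5 and 17.1 FPKM in the non-metastatic lines, a difference of 0.57 (SE 0.18, adjusted p = 0.335), and Slc30a5, a Golgi transporter, had 23.5 and 18.96 FPKM in the metastatic lines, against 14.7 and 18.3 FPKM in the non-metastatic lines. Slc30a4 had 7.22 and 26.02 FPKM in the metastatic lines, against 5.39 and 6.20 FPKM in the non-metastatic lines, and its difference of 1.13 was 0.28 without 482N1. The importers of the Slc39 family were mixed, with 6 of 10 positive (from 3 to 8 over the scalings) and a median of 0.06. Slc39a7, which releases zinc from the endoplasmic reticulum, had 82.5 and 76.3 FPKM in the metastatic lines, against 106 and 88.9 FPKM in the non-metastatic lines. The plasma membrane importer Slc39a1 had 58.4 and 64.00 FPKM in the metastatic lines, against 52.5 and 63.7 FPKM in the non-metastatic lines. Slc39a11 was lower, with 7.83 and 9.37 FPKM in the metastatic lines, against 14.2 and 14.7 FPKM in the non-metastatic lines (-0.69, SE 0.19, adjusted p = 0.335). The metallothionein Mt1, a zinc-binding protein gene, had 255 and 146 FPKM in the metastatic lines, against 392.3 and 247 FPKM in the non-metastatic lines, with overlapping groups. Mt2 had 76.9 and 44.6 FPKM in the metastatic lines, against 112.7 and 80.8 FPKM in the non-metastatic lines, with both metastatic lines below.

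The widest range of any member above 0 in every line was that of Slc39a4, the intestinal zinc importer mutated in human acrodermatitis enteropathica. It had 24.2 and 0.951 FPKM in the metastatic lines, against 29.3 and 22.6 FPKM in the non-metastatic lines, a range of 30.8-fold over the 4 lines. The line 238N1 lay between the non-metastatic lines, and 482N1 alone was near 1 FPKM. Its difference between the groups was -1.93 (SE 1.29, adjusted p = 0.464), and -0.09 without 482N1.

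**Figure D5:**
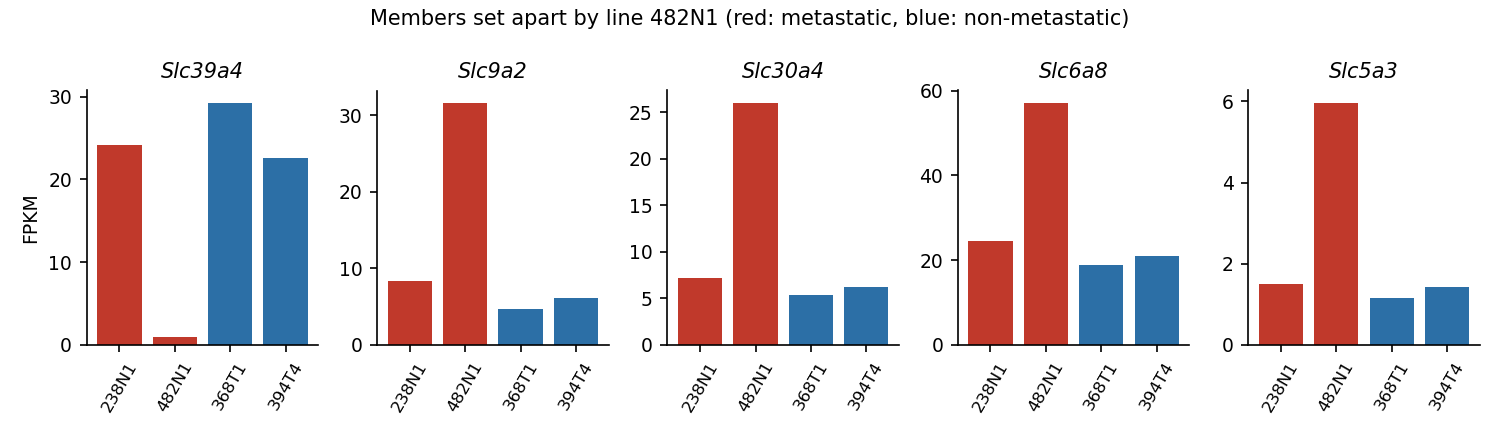
FPKM in each line for 5 members in which 482N1 stood apart, each panel with its own axis from 0. Red bars are the metastatic lines 238N1 and 482N1, and blue bars the non-metastatic lines 368T1 and 394T4. Slc39a4 is at 0.951 FPKM in 482N1, and the other 4 genes are highest in that line.

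Among carriers of other metals and haem, Slc11a2, the proton-coupled importer of ferrous iron, had 13.4 and 11.2 FPKM in the metastatic lines, against 20.4 and 17.5 FPKM in the non-metastatic lines, a difference of -0.58 (SE 0.20, adjusted p = 0.340). The iron exporter ferroportin, Slc40a1, had 5.45 and 1.79 FPKM in the metastatic lines, against 1.75 and 1.63 FPKM in the non-metastatic lines, with 238N1 alone above 2 FPKM. The transferrin receptor gene Tfrc had 53.2 and 46.8 FPKM in the metastatic lines, against 49.4 and 49.3 FPKM in the non-metastatic lines. The copper importer Slc31a1 had 13.6 and 12.2 FPKM in the metastatic lines, against 14.1 and 15.8 FPKM in the non-metastatic lines, and the haem transporter Slc48a1 had 33.4 and 31.7 FPKM in the metastatic lines, against 40.4 and 24.7 FPKM in the non-metastatic lines. The phosphate importers Slc20a1 and Slc20a2, the only members of the phosphate and sulphate class, overlapped between the groups. Slc20a2 had 47.7 and 42.1 FPKM in the metastatic lines, against 45.4 and 43.5 FPKM in the non-metastatic lines, and Slc20a1 was lowest in 238N1, with 29.97 and 58.7 FPKM in the metastatic lines, against 62.03 and 47.1 FPKM in the non-metastatic lines.

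Among carriers of vitamins, choline and nucleosides, a folate carrier and a pair of nucleoside carriers were lower in the metastatic lines, and of these Slc29a1 changed sign after scaling to the library sum. Slc19a1, the reduced folate carrier that also imports antifolate drugs, had 10.7 and 9.502 FPKM in the metastatic lines, against 20.1 and 19.3 FPKM in the non-metastatic lines. The spread within each group was small beside the gap, with means of 10.1 ± 0.831 FPKM in the metastatic lines and 19.7 ± 0.583 FPKM in the non-metastatic lines (SD, n = 2 each), and the difference was -0.90 (SE 0.18, adjusted p = 0.328), which shrank to -0.30 after scaling to the library sum. The proton-coupled folate transporter Slc46a1 overlapped between the groups, with 11.2 and 6.78 FPKM in the metastatic lines, against 7.29 and 7.24 FPKM in the non-metastatic lines. Slc29a1 differed by -0.37 (SE 0.14, adjusted p = 0.348), and its relative Slc29a2 had 3.69 and 2.75 FPKM in the metastatic lines, against 6.24 and 5.24 FPKM in the non-metastatic lines. The lysosomal nucleoside transporter Slc29a3 was on the other side, with 6.90 and 6.25 FPKM in the metastatic lines, against 4.09 and 5.33 FPKM in the non-metastatic lines. The choline transporter Slc44a1 had 17.5 and 23.3 FPKM in the metastatic lines, against 14.1 and 10.7 FPKM in the non-metastatic lines, and the vitamin C transporter Slc23a2 had 7.72 and 12.4 FPKM in the metastatic lines, against 6.80 and 7.17 FPKM in the non-metastatic lines.

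Carriers of organic ions and fatty acids were the lowest class, with a median level of 5.30 FPKM. Their highest member was Slc27a4, a fatty acid transport protein with acyl-CoA synthetase activity, with 20.1 and 34.97 FPKM in the metastatic lines, against 37.2 and 31.3 FPKM in the non-metastatic lines. The most even member of all was Slc22a4, an ergothioneine and organic cation transporter, with 2.11 and 2.16 FPKM in the metastatic lines, against 2.12 and 2.13 FPKM in the non-metastatic lines, a coefficient of variation of 1.15%. Slc10a3 and Slc39a9, with coefficients of 3.48% and 4.84%, were also among the 5 most even. The carnitine importer Slc22a5 had 4.02 and 2.79 FPKM in the metastatic lines, against 2.499 and 3.34 FPKM in the non-metastatic lines.

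The values were incomplete for 4 members, each listed at 0 in 1 line, which in this kind of file can be a failed estimate. Slc38a6 had 2.82 and 3.48 FPKM in the metastatic lines, against a listed 0 in 368T1 and 2.32 FPKM in 394T4. Slc7a4 had 4.31 and 2.92 FPKM in the metastatic lines, against 3.66 FPKM in 368T1 and a listed 0 in 394T4. The biotin and pantothenate transporter Slc5a6 was listed at 0 in 482N1 with 3.03 FPKM in 238N1, against 7.74 and 3.89 FPKM in the non-metastatic lines. Slc22a18 was listed at 0 in 482N1 with 3.72 FPKM in 238N1, against 1.37 and 3.80 FPKM in the non-metastatic lines. Of all members, 6 averaged 2 FPKM or more in the metastatic group alone (Slc38a6, Slc7a4, Slc35a5, Slc40a1, Slc41a3 and Slc5a3) and 2 in the non-metastatic group alone (Slc22a18 and Slc5a6), and for these the level limit and the difference are not independent.

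The line 482N1 was the highest of the 4 for 55 members and 238N1 for 27, against 43 for 368T1 and 14 for 394T4. The lowest line was 238N1 for 34 members and 482N1 for 35, against 55 for 368T1 and 15 for 394T4. Of all genes tested, 19.4% and 37.3% were highest in the metastatic lines, against 25.9% and 17.4% in the non-metastatic lines, and 22.3% and 30% were lowest in the metastatic lines, against 38% and 9.71% in the non-metastatic lines. In both counts the order of the lines was the same for members and for all genes. Over the 139 members, the 2 metastatic lines had a Spearman correlation of 0.898 and 15 members over 2-fold apart (10.8%, beside 10.5% of all genes tested), and the 2 non-metastatic lines had 0.963 and 4 members over 2-fold apart (2.88%, beside 6.44%). The pair furthest apart was 482N1 and 368T1, with 0.814 and 26 members (18.7%, beside 21.3%). The line 238N1 was closer to 394T4 than to 482N1, with 0.930 and 7 members (5.04%, beside 7.34%), and the shares of all genes had the same order. These correlations are across genes, which are not independent, and are given without a test.

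Transport genes outside the carrier set were counted as lists. Of the sodium pump genes, which sustain the sodium gradient many carriers use, 3 of 6 were tested and 0 passed the adjusted test. Of the organic anion transporters of the Slco family, 3 of 15 were tested and 0 passed, and Slco3a1 had 16.1 and 14.6 FPKM in the metastatic lines, against 11.8 and 5.87 FPKM in the non-metastatic lines. Of the ATP-binding cassette transporters, 24 of 49 were tested, 0 passed, and both metastatic lines stood above for 7 and below for 5, where 28.3% and 26.9% of all genes tested did so. The 2 solute carriers left out of the set had their own values: the glucose transporter Slc2a1 stood at 57.2 and 28.9 FPKM in the metastatic lines, against 96.7 and 81.3 FPKM in the non-metastatic lines, and the cystine-glutamate exchanger Slc7a11 at 1.81 and 2.23 FPKM in the metastatic lines, against 2.79 and 2.95 FPKM in the non-metastatic lines.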

How the data were processed

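RNA of 4 cultured mouse lung cancer lines was sequenced as paired reads of 100 bp from Illumina TruSeq libraries, per the labels. The submitters' processing notes name the build mm9 and TopHat, an aligner, with no version. The gene quantifier is not given in the sources used here, nor is its annotation. The authors deposited FPKM per gene, per the file headers, with no scaling between libraries stated. The table holds no counts, so read totals are unknown and no counting interval is given. One allele of the tumour genotype and some genes are not reported here.

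For a symbol with several rows, only the one with the highest mean was used. Positions and exon overlaps came from GENCODE vM1 on mm9. The test was limma 3.58.1 in R 4.3.3 with a variance trend on log2(FPKM + 1), two-sided, metastatic minus non-metastatic, over genes with a mean of at least 1 FPKM, with Benjamini-Hochberg adjustment and a threshold of 0.05. It was tested on simulated data. This scale understates the change of low genes. Members were assigned to substrate classes by family. The members, classes and lists were chosen with earlier results of these data known. Named genes were the 8 largest positive and negative differences among members with separate groups, the highest 2 of each class and 10 of all, the 8 widest ranges, members listed at 0, the 5 most even and those at the limit. Further members were named by role after their values were seen. Alternatives changed the pseudocount, filter, scaling, limma settings, row choice, zeros and the libraries used. Scaling to the protein-coding sum and the level bins were chosen after seeing the data. Figures were drawn with matplotlib 3.10.9.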

Additional observations from a re-analysis of the deposited data

How the results depend on the processing

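The 17 single members followed had the largest differences between separate groups or the widest ranges in these same data, so their directions were unlikely to change. Of all members, by contrast, 59 had a mixed sign over the 6 scalings. Over 18 alternatives, the 17 gave 305 values, of which 304 kept their direction and their side of the threshold and none changed sign. The exception was Slc4a11, which passed after scaling to the library sum, at -2.61 (adjusted p = 0.0195), and it was then the 1 member past the adjusted test. The counts of members moved with scaling and with the lines used. Members higher at an unadjusted p under 0.05 numbered 11 after scaling to the sum without the largest row, 18 after scaling to the protein-coding sum and 11 with genes listed at 0 left out, and between 2 and 13 with a line left out. Members lower numbered 1 after scaling to the library sum, 4 after scaling without the largest row, 4 after the protein-coding sum, and between 2 and 13 with a line left out. Without 238N1 there were 13 higher and 12 lower, without 482N1 there were 6 and 13, without 368T1 there were 2 and 2, and without 394T4 there were 5 and 7. Members whose metastatic lines stood above numbered 70 for the library sum, 67 without the largest row, 68 for the protein-coding sum and between 51 and 67 with a line left out. Members below numbered 3, 20 and 22 under those scalings. Over all genes tested, 708 were higher and 1079 lower at an unadjusted p under 0.05 as deposited, and 969 and 203 for the library sum. The median of all genes was 0.05 as deposited and 0.61 for the library sum. It was 0.26 without the largest row, 0.24 for the protein-coding sum, -0.017 under quantile normalization and -0.050 under median centring. For the other counts in this paragraph the shares of all genes are not given, so these counts describe no trait particular to the members. The members' median difference was 0.0041 under quantile normalization, 0.69 for the library sum, 0.32 without the largest row, 0.30 for the protein-coding sum, -0.0014 under median centring, and between 0.030 and 0.080 with a line left out. The share of members with a positive difference moves with these scalings, and the cause was not tested. With 2 lines in each group, leaving a line out leaves 1 in its group, which is then assumed to vary like the others. No paired analysis was possible because the replicate numbers do not tie a line of one group to a line of the other. Read depth is unknown beyond the ratios between libraries, so no detection limit is given.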

Other observations

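Some solute carriers below the level limit were uneven between the lines, and they were picked after their values were seen. Slc37a2, a sugar phosphate exchanger, had 0.565 and 4.31 FPKM in the metastatic lines, against 0.681 and 0.540 FPKM in the non-metastatic lines, and was highest in 482N1. Slc17a8, a vesicular glutamate transporter of neurons, had 1.15 and 3.35 FPKM in the metastatic lines, against 0.466 and 0.168 FPKM in the non-metastatic lines. Slc44a4, a choline transporter-like gene, was listed at 0 in both metastatic lines, against 4.55 FPKM in 368T1 and a listed 0 in 394T4. Slc25a14, a mitochondrial carrier of the uncoupling protein group, was listed at 0 in 238N1 with 3.56 FPKM in 482N1, against 3.74 FPKM in 368T1 and a listed 0 in 394T4. Among the transport genes outside the carrier set, Abcg1, a cholesterol exporter, had 1.65 and 12.1 FPKM in the metastatic lines, against 0.874 and 0.567 FPKM in the non-metastatic lines, again with 482N1 highest, and Slco2a1, a prostaglandin transporter, had 11.7 and 42.6 FPKM in the metastatic lines, against 22.8 and 13.9 FPKM in the non-metastatic lines.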
